A study of Homo sapiens with 11 samples.

Results

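The linker histone genes measured here were HIST1H1A, HIST1H1B, HIST1H1C, HIST1H1D, HIST1H1E, HIST1H1T, H1F0 and H1FX, 8 of the 58699 genes in the authors' deposited table. They were chosen by symbol with their FPKM values (fragments per kilobase of transcript, scaled to the fragments mapped) already known, so their levels and calls are a description and support no test. The cells were HCT116, an established human colorectal cancer line. Total RNA came from 4 groups of 2 libraries each. Cells with an siRNA to luciferase (siLuc), the control, received either the solvent DMSO or decitabine (DAC), a cytidine analogue that lowers DNA methylation, at 500 nM for 5 days. Cells with an siRNA to Staufen1 (siStau1), a protein that binds double-stranded RNA, received the same solvent or the same drug. All 4 groups therefore had an siRNA. The labels do not say that the 2 libraries of a group came from separate cultures.

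The authors' deposited table gave 1 FPKM value per group, so no spread between libraries can be shown and the depth is unknown. STAU1, the gene the siRNA targets, was 35.5 FPKM in siLuc cells with DMSO and 33.7 with DAC, and 29.975 and 27.1 in siStau1 cells. In the authors' deposited table the Cuffdiff q-value of STAU1 for siStau1 against siLuc was 0.767 in DMSO and 0.685 in DAC, so neither difference was called. The groups are therefore named by their siRNA label. Between 13350 and 14342 genes per group reached 1 FPKM. Of 7 colorectal epithelial markers, 5 were at least 1 FPKM in every group, while CDX1 was at most 0.947 and VIL1 at most 0.198. The summed level of these 7 markers was 2593 FPKM with DMSO and 8192 with DAC in siLuc cells, and 2146 and 5929 in siStau1 cells. The largest parts of these sums were KRT8, KRT18 and KRT19. In each arm 6 of the 7 were higher with DAC and 1, EPCAM, was lower. EPCAM was 259 and 117 FPKM in siLuc cells (Cuffdiff q = 0.0157 in the authors' deposited table), and 338 and 179 in siStau1 cells (q = 0.0905). Summed markers of other cell types were low and higher with DAC than with DMSO. The sum of 5 fibroblast markers was 1.77 FPKM with DMSO and 10.5 with DAC in siLuc cells, and 1.21 and 6.48 in siStau1 cells. The sum of 5 leukocyte markers was 1.70 and 19.2 in siLuc cells, and 0.744 and 9.20 in siStau1 cells, and that of 3 endothelial markers was 0.139 and 1.38, and 0.0666 and 1.57. Their part in the DAC results was not tested. An exact 0 in this table may be a failed estimate, since RN7SK, an RNA that every cell uses, is listed at 0 in siLuc DAC and at 80918 FPKM in siLuc DMSO. Genes at 0 are therefore described as listed at 0, with no fold. In bulk RNA, fewer cells that express a gene and less RNA per cell cannot be told apart.

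Linker histones, the H1 family, bind the DNA where it enters and leaves the nucleosome and help chromatin fold more tightly. Most somatic subtypes are encoded by the intronless genes of the HIST1 cluster, which are transcribed mainly in S phase together with the core histones H2A, H2B, H3 and H4. Their mRNAs normally end in a stem-loop rather than a poly(A) tail. H1F0 (H1.0) and H1FX (H1.10, often called H1X) lie outside the cluster, are not tied to replication in the same way and make polyadenylated mRNA. H1F0 is known to accumulate in cells that stop dividing or differentiate. HIST1H1T is the testis subtype.

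The promoters are shown because 3 of the 6 HIST1 members were listed at or near 0 in DMSO and higher in DAC, while 2 were very high in all groups. RefSeq promoters on GRCh38.p14, 250 bases before to 50 after the gene start, matched 7 of the 8 members. Each line holds the last 150 bases before the start, 5′ to 3′ on the gene's strand. Capitals mark AAACACA (the H1 box letters), CCAAT and TATAA on either strand, so that ATTGG and TTATA are also in capitals. In HIST1H1B, the capitals TTATATAA are overlapping TTATA and TATAA.
HIST1H1C, chr6:26056471-26056620, minus strand: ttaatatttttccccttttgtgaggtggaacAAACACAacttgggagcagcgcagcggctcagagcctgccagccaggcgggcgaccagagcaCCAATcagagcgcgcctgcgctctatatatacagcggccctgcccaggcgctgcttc
HIST1H1E, chr6:26156179-26156328, plus strand: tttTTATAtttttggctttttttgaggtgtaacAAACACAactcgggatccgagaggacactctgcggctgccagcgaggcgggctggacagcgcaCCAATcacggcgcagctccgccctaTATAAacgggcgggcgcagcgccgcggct
HIST1H1B, chr6:27867589-27867738, minus strand: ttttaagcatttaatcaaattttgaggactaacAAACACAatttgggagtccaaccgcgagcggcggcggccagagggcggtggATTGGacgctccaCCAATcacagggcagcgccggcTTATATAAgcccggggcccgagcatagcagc
HIST1H1D, chr6:26234988-26235137, minus strand: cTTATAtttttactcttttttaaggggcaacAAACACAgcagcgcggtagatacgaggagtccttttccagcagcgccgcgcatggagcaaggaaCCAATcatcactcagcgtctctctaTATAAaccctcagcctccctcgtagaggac
HIST1H1A, chr6:26017788-26017937, minus strand: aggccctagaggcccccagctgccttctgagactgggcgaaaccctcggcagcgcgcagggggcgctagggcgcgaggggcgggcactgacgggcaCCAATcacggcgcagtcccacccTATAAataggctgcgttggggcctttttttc
HIST1H1T, chr6:26108136-26108285, minus strand: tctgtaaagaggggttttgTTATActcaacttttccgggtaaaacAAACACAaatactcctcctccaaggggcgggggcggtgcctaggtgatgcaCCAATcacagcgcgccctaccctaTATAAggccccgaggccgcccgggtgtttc
H1FX, chr3:129316287-129316436, minus strand: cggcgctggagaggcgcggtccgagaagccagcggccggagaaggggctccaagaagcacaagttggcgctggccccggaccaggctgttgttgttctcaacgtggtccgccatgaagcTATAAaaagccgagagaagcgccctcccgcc

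All 6 HIST1 promoters held AAACACA and CCAAT within the 300 bases, and all but HIST1H1C held TATAA. Among 35116 RefSeq promoters of the same length, 5.64% held AAACACA on either strand, 34.6% CCAAT, 20.4% TATAA and 0.780% all of these. On the gene's strand, AAACACA began at position -119 from the start in HIST1H1C and HIST1H1D, at -117 in HIST1H1B and HIST1H1E, and at -105 in HIST1H1T. HIST1H1A held it only on the other strand, at positions -183 to -177, outside the letters shown. The H1FX promoter held TATAA but neither of the other motifs. Counting either strand, HIST1H1A, HIST1H1B, HIST1H1D, HIST1H1E and HIST1H1T held all 3 motifs. In siLuc DMSO, HIST1H1E was 1802 FPKM, HIST1H1T 9.30 and HIST1H1A 0.504, and HIST1H1B and HIST1H1D were listed at 0. CpG dinucleotides in the 300 bases numbered 25 in HIST1H1E, 17 in HIST1H1A, 15 in HIST1H1C, 13 in HIST1H1B, 12 in HIST1H1T, 11 in HIST1H1D and 32 in H1FX, and the median of all promoters was 14, with quartiles of 4 and 28. A motif match is a description of the letters, and DNA methylation was not measured here.

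The 3′ ends of the gene models bear on what the table could count. In GENCODE release 29 the models of HIST1H1A, HIST1H1B, HIST1H1C and HIST1H1D end at the stop codon, with 3 bases beyond the coding part, and so hold no stem-loop. The models of HIST1H1E and HIST1H1T carry 97 bases outside the coding part and end in it. Their last 30 bases follow, with GGCTCTTTT, part of the histone stem-loop, in capitals.
HIST1H1E, chr6:26157078-26157107, plus strand: gcccaacacaacccaaaGGCTCTTTTcaga
HIST1H1T, chr6:26107419-26107448, minus strand: ttggaaagaacccaaaGGCTCTTTTaagag
H1F0 and H1FX have 1762 and 868 bases outside the coding part and hold no such letters. No run of 50 bases in any member occurs in another gene's GENCODE transcript. Of runs of 25 bases, 24 of 657 in HIST1H1B, 18 of 618 in HIST1H1C and 20 of 730 in HIST1H1E were shared, as were 2 of 624 in HIST1H1A and 2 of 642 in HIST1H1D, all with other members only. How the authors' counting treated reads from such stretches is not given in the sources used here, so small differences between these members are uncertain.

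The main somatic subtypes HIST1H1C (H1.2) and HIST1H1E (H1.4) were by far the most abundant linker histone mRNAs. HIST1H1C (ENSG00000187837.3, a 642-base, 1-exon gene at chr6:26055787-26056428) was 1817 FPKM in siLuc cells with DMSO and 2108 with DAC, and 1277 and 1419 in siStau1 cells. HIST1H1E (ENSG00000168298.6, 754 bases, 1 exon, chr6:26156354-26157107) was 1802 FPKM with DMSO and 1912 with DAC in siLuc cells, and 1329.6 and 1152 in siStau1 cells. Both were lowest in the siStau1 groups, and their highest value was 1.65 and 1.66 times their lowest. HIST1H1C ranked above HIST1H1E in 3 of the 4 groups, and HIST1H1E above HIST1H1C in siStau1 DMSO. Without values per library it cannot be said whether these 2 neighbours in the order differ beyond their spread. Together they held 94.1% of the summed linker histone FPKM with DMSO and 87.6% with DAC in siLuc cells, and 95.5% and 86.4% in siStau1 cells.

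With DAC, neither was called in the authors' deposited table. The Cuffdiff q-values for DAC in siLuc were 0.806 for HIST1H1C and 0.934 for HIST1H1E, and for DAC in siStau1 they were 0.864 and 0.807. Log2 ratios of FPKM, with 0.1 added to each value, were 0.21 for HIST1H1C and 0.09 for HIST1H1E in siLuc, and 0.15 and -0.21 in siStau1. The siLuc values turned negative after the median of genes of like GC content was subtracted (GC centring), to -0.55 and -0.84. The siStau1 values were then -0.41 and -0.87, so HIST1H1C changed sign there too. Set against siLuc, siStau1 cells with DMSO had log2 ratios of -0.51 for HIST1H1C and -0.44 for HIST1H1E. With DAC these were -0.57 for HIST1H1C and -0.73 for HIST1H1E. After GC centring these 4 ratios were -0.24 and -0.18 in DMSO, and -0.12 and -0.20 in DAC. None of the 4 comparisons passed the authors' test. The lowest Cuffdiff p among them in the authors' deposited table was 0.0234, for HIST1H1E in DAC, with a q of 0.173.

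**Figure D1:**
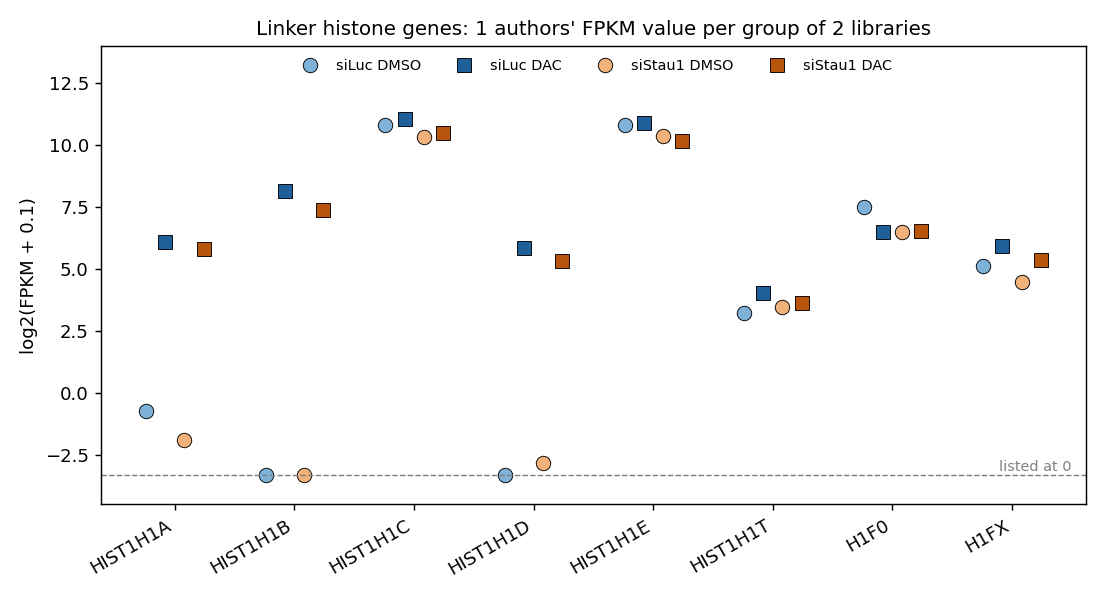
Level of each linker histone gene on a log2(FPKM + 0.1) axis, with 1 point per group of 2 libraries (circles DMSO, squares DAC; blue siLuc, orange siStau1) and a dashed line for values listed at 0. HIST1H1C and HIST1H1E lie above 1152 FPKM in all 4 groups, while HIST1H1A, HIST1H1B and HIST1H1D stay under 1 FPKM in each DMSO group and lie between 40.1 and 279 FPKM with DAC.

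HIST1H1B (H1.5), HIST1H1D (H1.3) and HIST1H1A (H1.1), the other somatic subtypes of the cluster, were listed at 0 or below 1 FPKM in the DMSO groups and at 40.1 FPKM or more in the DAC groups. HIST1H1B (ENSG00000184357.4, 681 bases, 1 exon, chr6:27866849-27867529) was listed at 0 with DMSO under either siRNA, and with DAC it was 279 FPKM in siLuc cells and 164 in siStau1 cells. HIST1H1D (ENSG00000124575.6, 666 bases, 1 exon, chr6:26234268-26234933) was listed at 0 with DMSO in siLuc cells and at 0.0405 in siStau1 cells, and with DAC it was 56.7 and 40.1 FPKM. HIST1H1A (ENSG00000124610.4, 648 bases, 1 exon, chr6:26017085-26017732) was 0.504 FPKM with DMSO in siLuc cells and 0.168 in siStau1 cells, and with DAC it was 67.7 and 55.1. In both siRNA arms the DAC value was far above the DMSO value, and in all 3 genes the siLuc DAC value was above the siStau1 DAC value. In DAC, HIST1H1B was the third most abundant member in both arms, above H1F0. The 3 genes together went from 0.0131% of the linker histone sum in siLuc DMSO to 8.78% in siLuc DAC, and from 0.00764% to 8.71% in siStau1.

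In the authors' deposited table HIST1H1B was called higher with DAC in siLuc and in siStau1, with a Cuffdiff q of 0.00162 in each, the lowest q the table holds. HIST1H1D was called higher with DAC in siLuc (q = 0.00162) but its q in siStau1 was 0.315. HIST1H1A was not called in either arm of the authors' deposited table, with a q of 0.190 in siLuc and 0.514 in siStau1. All 3 of these calls are against a value listed at 0, which may be a failed estimate, and no member of the 3 was called where its DMSO value was above 0. HIST1H1A was higher than HIST1H1D in both DAC groups and had the larger q, but its DMSO value was also the higher in each arm. Whether the authors' test of HIST1H1D differed between the arms was not tested. For siStau1 against siLuc within DAC, the log2 ratios were -0.77 for HIST1H1B, -0.50 for HIST1H1D and -0.30 for HIST1H1A, and none passed the authors' test. The Cuffdiff q of HIST1H1B there was 0.139 in the authors' deposited table, with an unadjusted p of 0.0169. In DMSO the authors' deposited table gave no test for these 3 genes.

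**Figure D2:**
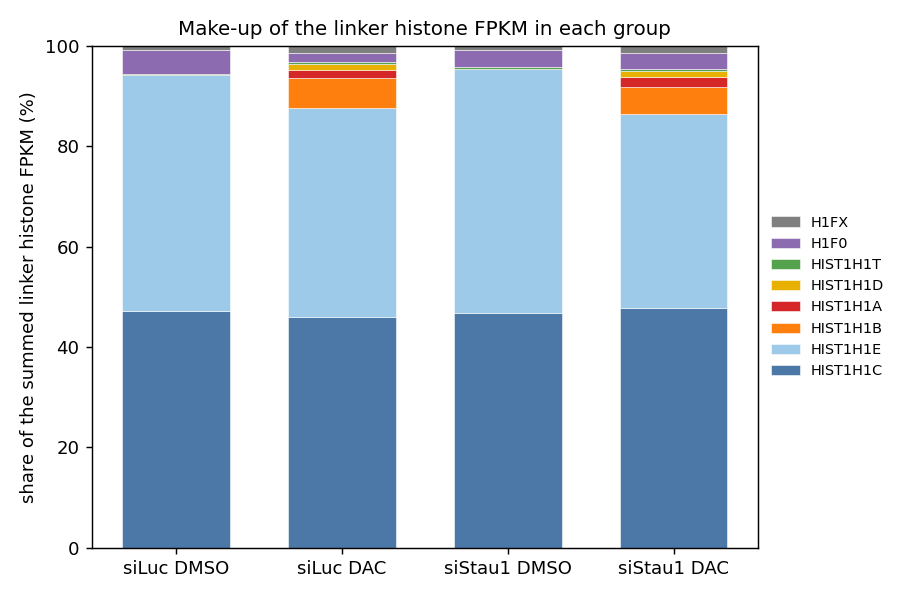
Share of the summed linker histone FPKM (vertical axis, percent) held by each of the 8 genes in the 4 groups, with 1 bar per group of 2 libraries and no error bars since the table gives no value per library. HIST1H1C and HIST1H1E hold 94.1% in siLuc DMSO and 87.6% in siLuc DAC, where HIST1H1B alone holds 6.07%.

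The testis subtype HIST1H1T (ENSG00000187475.5, 718 bases, 1 exon, chr6:26107419-26108136) was measured in every group, far below HIST1H1C and HIST1H1E. Between 41.7% and 59.5% of the protein-coding genes with at least 1 FPKM in a group lay below HIST1H1T. It was 9.30 FPKM with DMSO and 16.4 with DAC in siLuc cells, and 10.9 and 12.2 in siStau1 cells. Its highest value was 1.76 times its lowest, and it was the lowest member in both DAC groups. No comparison called it in the authors' deposited table, where its Cuffdiff q ran from 0.421 for DAC in siLuc to 0.921 for DAC in siStau1. The germ-cell linker histones outside the 8 members stayed near 0: H1FNT was listed at 0 in all groups, and H1FOO (0.0366 FPKM) and HILS1 (0.0532 FPKM) were above 0 in siLuc DAC alone.

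H1F0 (ENSG00000189060.5, 2344 bases, 1 exon, chr22:37805093-37807436) was lower with DAC in siLuc cells, alone among the members in FPKM, although HIST1H1C, HIST1H1E and H1FX also lay below 0 after GC centring. Its level was 181 FPKM with DMSO and 88.9 with DAC in siLuc cells, and 90.1 and 93.1 in siStau1 cells. The siLuc DMSO value stood alone, and the other 3 groups lay between 88.9 and 93.1 FPKM. In the authors' deposited table H1F0 fell with DAC in siLuc (log2 fold -1.03, Cuffdiff q = 0.0173). It also fell with siStau1 in DMSO there (authors' deposited table, log2 fold -1.01, Cuffdiff q = 0.0187). Both comparisons use the siLuc DMSO libraries, so the 2 calls share their control. The second call was lost when p-values were adjusted within that comparison alone, where the adjusted Cuffdiff p was 0.194. With DAC in siStau1 the log2 ratio of H1F0 was 0.05 (Cuffdiff q = 0.958 in the authors' deposited table), and with siStau1 in DAC it was 0.07 (q = 0.943). The log2 ratio to DAC was thus 1.08 higher in siStau1 than in siLuc, a difference that was not tested. H1F0 held 4.72% of the linker histone sum with DMSO and 1.94% with DAC in siLuc cells, and 3.30% and 3.13% in siStau1 cells.

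H1FX (ENSG00000184897.5, 1507 bases, 1 exon, chr3:129314771-129316277) was higher in FPKM with DAC in both siRNA arms, without passing the authors' test, and in siLuc the sign turned with GC centring. In siLuc cells it was 34.7 FPKM with DMSO and 61.0 with DAC, and in siStau1 cells 22.1 and 40.9. Both DAC values were above both DMSO values, and within each treatment the siStau1 value was the lower. The log2 ratio with DAC was 0.81 in siLuc (Cuffdiff q = 0.116 in the authors' deposited table) and 0.89 in siStau1 (q = 0.128). H1FX had the highest GC content of the members, 68.6%. After the median of genes of like GC content was subtracted, its ratios were -0.39 and 0.03. It is also the only member that an annotated gene overlaps: the antisense gene H1FX-AS1 was 0.320 FPKM with DMSO and 1.49 with DAC in siLuc cells, and 0.0889 and 0.863 in siStau1 cells. The strand setting of the authors' counting is not given in the sources used here, so reads of H1FX and its antisense partner may not have been kept apart.

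Across the family, the authors' deposited table called 3 of 8 members with DAC in siLuc at a Cuffdiff q under 0.05 (HIST1H1B and HIST1H1D higher, H1F0 lower), where 13.5% of 17504 tested genes were called, 8.71% higher and 4.78% lower. With DAC in siStau1 it called 1 of 8 (HIST1H1B, higher), where 7.46% of tested genes were called, 4.56% higher and 2.89% lower. With siStau1 in DMSO it called 1 of 5 tested (H1F0, lower), where 0.799% were called, 0.333% higher and 0.466% lower. With siStau1 in DAC it called 0 of 8, where 0.904% were called, 0.434% higher and 0.469% lower. In that comparison 2 of 8 members, HIST1H1B and HIST1H1E, both lower, had an unadjusted Cuffdiff p under 0.05 in the authors' deposited table. At that limit stood 6.95% of 17263 tested genes, 3.09% higher and 3.85% lower. Since the members were chosen with these values known, nothing is read from these counts. Comparisons that have a group in common share its libraries: DAC in siStau1 and siStau1 in DAC, for example, share siStau1 DAC.

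The log2 ratio was above 0 for 7 of 8 members with DAC in each arm, with a median of 0.81 in siLuc and 0.52 in siStau1, beside 0.08 and 0.02 over all genes that reached 1 FPKM in the groups compared. The member medians rest on the 3 genes listed at or near 0 in DMSO: over the 5 members with at least 1 FPKM in both groups they were 0.21 and 0.15. Of these 5, 4 were above 0 with DAC in each arm, and after GC centring 1 was in siLuc and 2 in siStau1. With siStau1 in DAC 7 of 8 members were below 0, with a median of -0.54, beside -0.11 for all genes, while after GC centring 2 members, H1F0 and H1FX, were above 0. With siStau1 in DMSO the 5 members with at least 1 FPKM had a median of -0.51, beside -0.02 for all genes, and HIST1H1T, at 0.23, was above 0. The DAC ratio in siStau1 minus that in siLuc was 0.07 for H1FX, -0.06 for HIST1H1C, -0.29 for HIST1H1E and -0.65 for HIST1H1T, beside 1.08 for H1F0, and without values per library no interaction was tested. These ratios are on the log2(FPKM + 0.1) scale, which understates the change of low genes.

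GC content moved with the ratios over the whole table and touches these medians. With DAC in siLuc the median log2 ratio of protein-coding genes ran from -0.95 in the lowest of 20 GC bins to 1.20 in the highest, and with siStau1 in DAC from 0.61 to -0.64. The members' GC content was 48.3% in HIST1H1T to 68.6% in H1FX. After each gene's GC bin median was subtracted, H1F0 was -1.46 with DAC in siLuc and HIST1H1T 0.81, while HIST1H1C, HIST1H1E and H1FX were below 0. With siStau1 in DAC the member median was then -0.15. The part of GC content in these results was not tested further.

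**Figure D3:**
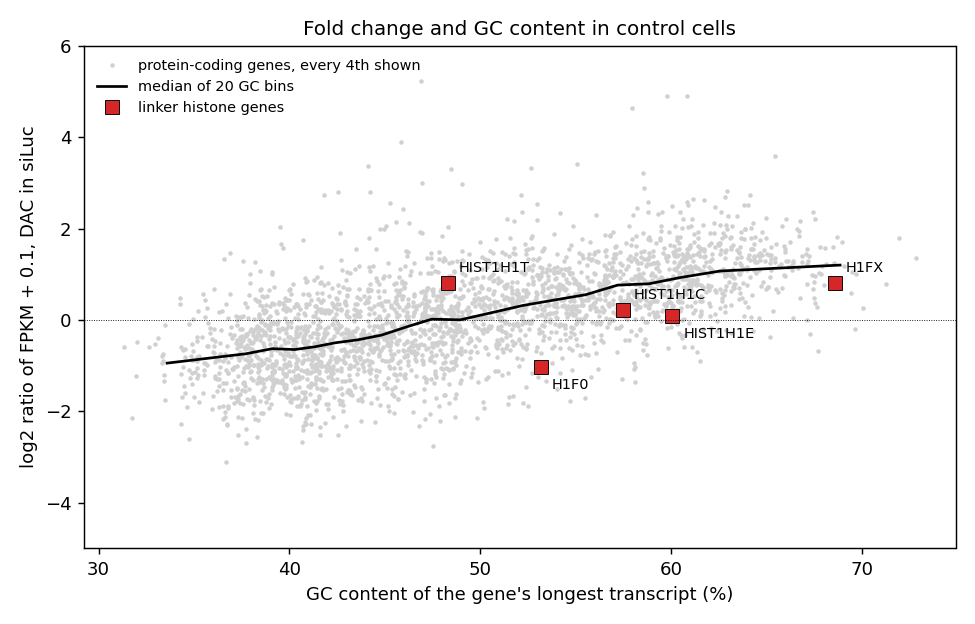
Log2 ratio of FPKM + 0.1 for DAC in siLuc (vertical axis) against the percent GC of the longest transcript, for protein-coding genes (grey), the median of 20 GC bins (line) and the 5 linker histone genes with at least 1 FPKM in every group (red). The line runs from -0.95 to 1.20, and H1F0, at -1.03, lies below it while HIST1H1T, at 0.81, lies above it.

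**Figure D4:**
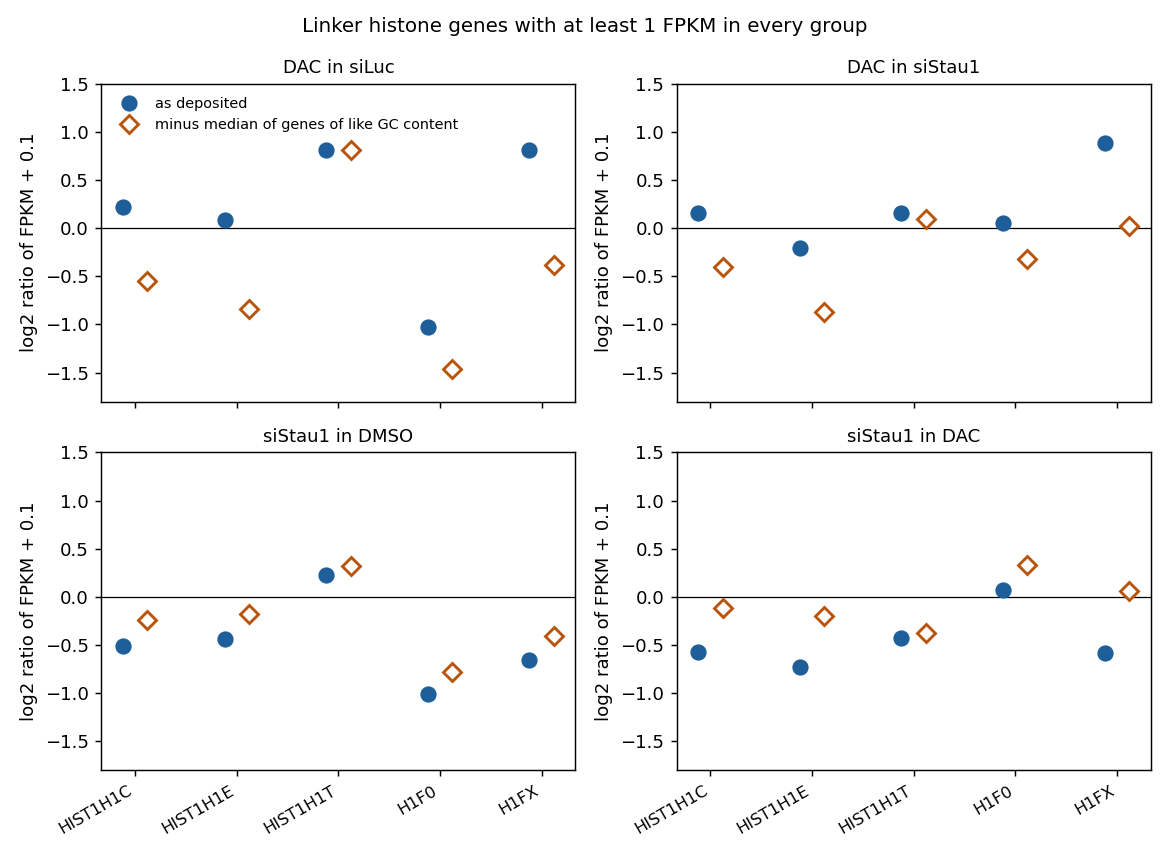
Log2 ratio of FPKM + 0.1 in each of 4 comparisons for the 5 linker histone genes with at least 1 FPKM in every group, as computed from the deposited values (filled circles) and after subtraction of the median of genes of like GC content (open diamonds); there is 1 value per group, so there are no error bars. H1F0 is at -1.03 with DAC in siLuc and at 0.05 with DAC in siStau1, and H1FX moves from 0.81 to -0.39 with the subtraction in siLuc.

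The summed linker histone level was 3846 FPKM with DMSO and 4590.1 with DAC in siLuc cells, and 2729.7 and 2976 in siStau1 cells. Set against the sum of the 49 protein-coding core histone genes of HIST1, it was 27.7%, 23.3%, 27.3% and 25.5% in the same order. The linker to core ratio thus varied less between groups than the linker sum, and it was lower with DAC than with DMSO in each arm. For the core genes themselves the median log2 ratio with DAC was 0.78 in siLuc, or 0.50 after GC centring. There the authors' deposited table called 14 of 48 tested genes higher by Cuffdiff q and 0 lower, beside 8.71% and 4.78% of all tested genes. With DAC in siStau1 the core median was 0.36, or 0.27 after GC centring, with 9 of 48 called higher in the authors' deposited table, beside 4.56% of all tested genes. The calls of HIST1H3I, HIST1H4F and HIST1H4L in both arms, and of HIST1H2AA in siLuc, are against a DMSO value listed at 0. Such a value may be a failed estimate. With siStau1 in DAC the core median was -0.79, with 2 of 48 called lower in the authors' deposited table, beside 0.469% of all tested genes. All 49 core genes were below 0 there, or 47 of them after GC centring.

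The pattern of HIST1H1A, HIST1H1B and HIST1H1D, below 1 FPKM under either siRNA with DMSO and 10 or more under either with DAC, was also found among core genes. That 3 of 6 linker genes of HIST1 met this pattern was fixed in advance, since it was taken from them. It was met by 1 of 12 H2A, 1 of 15 H2B, 1 of 10 H3 and 3 of 12 H4 genes. Of 19940 protein-coding genes, 8371 had DMSO levels low enough to qualify, and 45 of these met the pattern. Of 30 HIST1 genes whose models hold only coding sequence 7 met it, against 2 of the other 25. The 7 include the 3 linker genes from which the pattern was taken, so this contrast is no test. Median log2 ratios with DAC were 0.83 in the 30 and 0.76 in the 25 in siLuc, and 0.15 and 0.37 in siStau1. Histone genes beside HIST1H1B and HIST1H1D were also higher in FPKM with DAC in siLuc, as were 45 of the 49 core genes, with 4 lower. After GC centring 30 of the 49 were above 0 and 19 below. HIST1H1B lies 1.10 kb from HIST1H2AL, an H2A gene, which was 2.05 FPKM in siLuc DMSO and 95.5 in siLuc DAC, and 4.38 kb from HIST1H3I, an H3 gene, listed at 0 and at 62.7. HIST1H1D lies between HIST1H3E, 7.61 FPKM in siLuc DMSO and 79.3 in siLuc DAC, and HIST1H4F, listed at 0 and at 127. Beside HIST1H1A, HIST1H3A was 129 FPKM with DMSO and 233 with DAC in siLuc, and 123 and 129 in siStau1. On its other side TRIM38, which is no histone gene, was 5.74 and 5.07 FPKM in siLuc, and 5.06 and 5.09 in siStau1. A near neighbour could also differ: HIST1H3C, 9.97 kb from HIST1H1C, was 3.41 FPKM in siLuc DMSO and 371 in siLuc DAC, whereas HIST1H1C was 1817 and 2108. Beside HIST1H1E, HIST1H2BD was 1331 FPKM in siLuc DMSO and 949 in siLuc DAC, and HIST1H2AC 214 and 215. Beside HIST1H1T, HIST1H4C was 1008 and 1304 FPKM in siLuc, and HIST1H2BC 840 and 886.

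**Figure D5:**
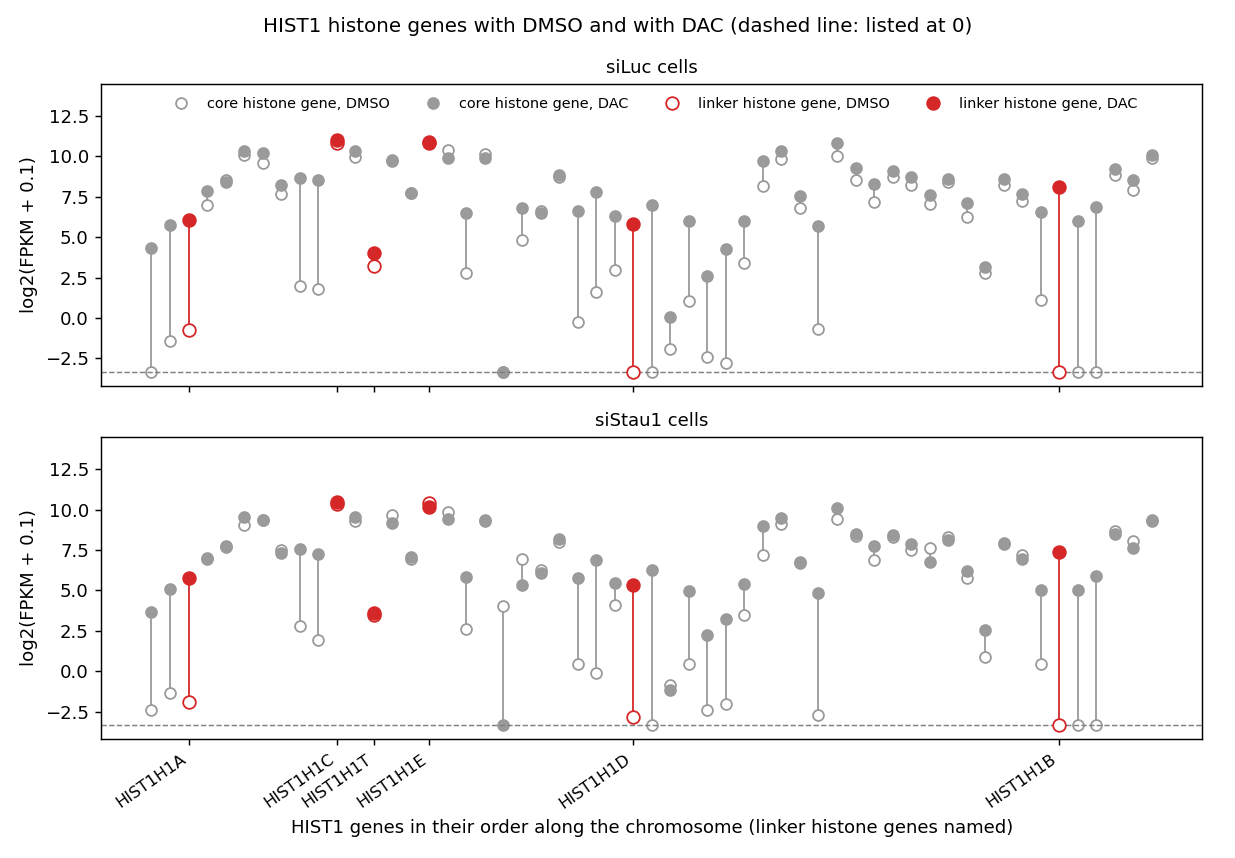
Level of the 55 protein-coding HIST1 genes on a log2(FPKM + 0.1) axis, in their order along chromosome 6, with DMSO as open and DAC as filled circles joined by a line, for siLuc cells (top) and siStau1 cells (bottom); linker histone genes are red and core histone genes grey. HIST1H1A, HIST1H1B and HIST1H1D have long lines in both panels. So do 6 core genes that were also under 1 FPKM with DMSO and at least 10 with DAC. Other core genes outside these limits, such as HIST1H2BB and HIST1H3C, have long lines too, while HIST1H1C, HIST1H1E and HIST1H1T have short ones.

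Genes that carry, remove or compete with linker histones were mostly lower with DAC. Of 14 chaperones and chromatin competitors of H1, the authors' deposited table called 8 lower and 1 higher by Cuffdiff q with DAC in siLuc, beside 4.78% lower and 8.71% higher over all tested genes. With DAC in siStau1 it called 4 lower and 1 higher, beside 2.89% and 4.56%. The list's median log2 ratios were -1.16 and -0.56, beside 0.08 and 0.02 for all genes. After GC centring the list's medians were -0.82 and -0.45, with 12 of the 14 below 0 in siLuc and 10 in siStau1. HMGB2, a high-mobility group protein that bends DNA, fell from 388 FPKM to 87.4 with DAC in siLuc (q = 0.00162 in the authors' deposited table). HMGN3, a nucleosome-binding protein, fell from 89.9 to 21.7 (q = 0.00162). HMGA1, an AT-hook protein that competes with H1 for linker DNA, rose from 321 to 820.3 FPKM (q = 0.0142). Its relative HMGA2 was 25.9 and 35.8 FPKM, which was not called (q = 0.586). With siStau1 in DAC 13 of the 14 were above 0 (11 after GC centring), with a median of 0.46, and the authors' deposited table called none of them, nor any with siStau1 in DMSO.

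The factors that transcribe and process histone mRNA showed no common direction. Of 14, the authors' deposited table called 1 higher and 1 lower by Cuffdiff q with DAC in siLuc, beside 8.71% and 4.78% of all tested genes, and 3 lower with DAC in siStau1, beside 2.89%. The list's medians were -0.05 and -0.01. ERI1, an exonuclease that acts on the histone stem-loop, fell from 47.5 FPKM in siLuc DMSO to 13.6 in siLuc DAC (q = 0.00162 in the authors' deposited table). CASP8AP2, a regulator of histone transcription, was 12.1 and 3.69 FPKM there (q = 0.0741) and fell in siStau1 from 16.7 to 4.93 (q = 0.00162). SYMPK, a scaffold of the 3′ cleavage complex, rose from 11.5 to 27.8 FPKM (q = 0.0126), and UPF1, a helicase of histone mRNA decay, was 15.3 and 36.9 FPKM (q = 0.207). With either siStau1 comparison, the authors' deposited table called 0 of the 14.

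Genes of S phase, when HIST1 genes are normally transcribed, differed in direction with DAC, and after GC centring most were below 0. Of 15, the authors' deposited table called 1 higher and 1 lower by Cuffdiff q with DAC in siLuc, beside 8.71% and 4.78% of all tested genes. With DAC in siStau1 it called 0 higher and 1 lower, beside 4.56% and 2.89%. The list's medians were -0.29 and -0.32, with 10 of the 15 lower in siLuc and 8 in siStau1. After GC centring the medians were -0.46 and -0.38, with 11 below 0 in siLuc and 12 in siStau1. PCNA, the sliding clamp of DNA replication, fell from 334 FPKM to 130 in siLuc (q = 0.00162 in the authors' deposited table), and CDT1, which licenses replication origins, rose from 13.0 to 31.2 (q = 0.0149). CCNE2, a cyclin of S-phase entry, was 10.8 and 5.57 FPKM (q = 0.704), and MCM5, a subunit of the replicative helicase, was 92.6 and 179 (q = 0.110). After GC centring the siLuc ratio of PCNA was -1.03 and that of CDT1 0.06. In siStau1 CDT1 was 15.3 FPKM with DMSO and 17.9 with DAC (Cuffdiff q = 0.856 in the authors' deposited table), and its GC-centred ratio was -0.63. The part of cell cycle, other cell types or library depth in the linker histone values was not tested.

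Genes whose pattern over the 4 groups was most like a member were ranked among 10686 protein-coding genes by the Euclidean distance between log2(FPKM + 0.1) profiles, each centred on its own mean. Nearest to HIST1H1C were CHD3 (distance 0.0385), AC008763.2, MRTFB, ACAP3 and FUT2 (distance 0.0607). Nearest to H1F0 were PCBD2 (distance 0.112), RMI2, BCL6, FBXO27 and FHIT (distance 0.154), which like H1F0 were highest in siLuc DMSO. PCBD2 was 8.95 FPKM with DMSO and 3.91 with DAC in siLuc cells, and 4.16 and 4.15 in siStau1 cells. Nearest to H1FX were NKD2 (distance 0.0300), RNF121, TMEM138, RIPK4 and TMEM173 (distance 0.0482). With 4 points per gene, a small distance among so many genes describes the shape of the values alone.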

How the data were processed

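Total RNA of 8 HCT116 libraries was used. The 3 libraries of RNA bound by an antibody (J2 in their labels) cover repeat elements and were not used here. The kit was stranded and ribosomal RNA was depleted, per the labels' protocols. The submitters' processing notes name bcl2fastq 2.20, HISAT2 2.1.0, featureCounts, DESeq 1.36.0, Cuffdiff 2.2.1 and Cuffnorm 2.2.1, with no role or order. The authors deposited FPKM values, 1 per gene and group, in a Cuffdiff table of 6 comparisons, of which 4 are reported. The authors deposited a log2 fold change, a test score, a p-value and a q-value for each. The q-value equals a Benjamini-Hochberg value over all 102180 tests (to within 5.27e-07). The depth of the libraries, and so the precision of a value, is unknown.

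Values were read with pandas 2.3.3 and numpy 2.4.6 in Python 3.11.15. Log2 ratios used a pseudocount of 0.1 FPKM. GC and length corrections subtracted the median of protein-coding genes in 20 bins. Scripts were tested on simulated data. All 58699 identifiers are in GENCODE release 29. Promoters came from RefSeq. The planned edgeR fits and tests without single libraries need values per library and were replaced by the authors' calls at q below 0.05. The members and gene lists were chosen with earlier results of these data known. Named genes are all members, the 5 nearest patterns, and from each list the 2 largest and 2 smallest log2 ratios for DAC in siLuc. The core histone genes were not named by this rule, but as HIST1 neighbours of the members. STAU1 and single cell type markers were named besides. Alternatives were the pseudocount, the q limit, the scaling, GC, length and low values.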

Additional observations from a re-analysis of the deposited data

How the results depend on the processing

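No paired analysis was possible because the table gives 1 value per group and none per library, and for the same reason no library could be left out. A median of the 8 members' log2 ratios counts here as moved when it shifted by over 0.1, and a share when it shifted by over 1 percentage point. With DAC in siLuc the median of 0.81 was 0.21 after centring within GC bins, 0.65 within length bins and 0.21 over members with at least 1 FPKM. With DAC in siStau1 the median of 0.52 became 0.060, 0.38 and 0.15. With siStau1 in DMSO the median of -0.47 became -0.21 with GC and -0.30 with length, and the 1 call, H1F0, became 0 at a q limit of 0.01 and 0 when adjusted within the comparison. With siStau1 in DAC the median of -0.54 became -0.42 on the median of genes, -0.39 on the protein-coding sum, -0.15 with GC and -0.24 with length. Without H1F0 and H1FX, HIST1H1C and HIST1H1E held 99.7% with DMSO and 90.5% with DAC in siLuc cells, and 99.6% and 90.5% in siStau1 cells. The median difference of the DAC ratio, siStau1 minus siLuc, was -0.18, reversed to 0.056 with GC and was -0.062 over members with at least 1 FPKM in all groups. The cause of these shifts was not tested. The other 28 alternative values of these results kept their direction and stayed within these limits, or within 1.5 times for counts of calls. Of 162 alternative values of 27 single log2 ratios, 12 had another sign, in 8 ratios, all under GC or length centring. Depth is unknown, so it cannot be said which low values it limits.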
